A study of Mus musculus with 15 samples.

Results

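Wt1, Lmx1b, Tcf21, Foxc1, Foxc2, Foxd1, Osr2 and Zeb2 are transcription factors that mark the podocyte lineage or act in its development, and their mRNA was followed in the podocyte fraction of young and aged mouse kidneys. They were chosen by name and not by a threshold on their values, and they are 8 of the 46078 genes in the deposited table. The podocyte fraction is the cell fraction that was pulled from digested kidney cortex by magnetic-activated cell sorting (MACS) with antibodies against nephrin, the product of Nphs1, so Nphs1 was the sort target. Male C57BL/6J mice fell into 3 groups: young uninjected mice aged 4 months (n = 5), aged IgG2a-injected mice aged 21 months that received an isotype control antibody (n = 4), and aged aPD1ab-injected mice aged 21 months that received a blocking antibody against PD-1 (n = 4). Both antibodies were given weekly into the peritoneum at 12 mg/kg for 8 weeks, while the titles of the aPD1ab samples give 47 days. Since the young mice were not injected, age and antibody injection cannot be told apart in any comparison with them. The labels list 5 mice per group, but columns carry numbers that are not in the labels. The study's plot of these libraries gave the group of 13 columns by number, and 2 further columns with no known group were not used. Libraries held 19912969 to 32717100 counts.

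A podocyte is the postmitotic epithelial cell whose foot processes and slit diaphragm form the outer layer of the glomerular filter. Its identity is set and kept by a small set of transcription factors, of which WT1 and LMX1B also act on the genes of the slit diaphragm in the mature cell, while the forkhead factors and TCF21 are best known from the forming glomerulus. Loss of this set of factors is a known feature of injured podocytes. In bulk RNA of a sorted fraction, fewer podocytes and less mRNA per podocyte cannot be told apart.

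The sorted fraction held other cells. Summed over 10 podocyte markers, the libraries held 863 to 1394 CPM (counts per 1000000 counts of a library, scaled between libraries by TMM) in young mice, 304 to 422 CPM in aged IgG2a-injected mice and 231 to 716 CPM in aged aPD1ab-injected mice. Of these markers Podxl weighed most in the sum, with means of 570, 186 and 231 CPM in the same order. Nphs1 had means of 64.6, 8.81 and 27.1 CPM. The sum of 10 proximal tubule markers was 5593 to 8893 CPM in young mice, 883 to 4160 CPM with IgG2a and 4285 to 12753 CPM with aPD1ab. The sum of 10 macrophage markers was 1666 to 2842 CPM, 2429 to 7473 CPM and 1743 to 4262 CPM in the same order, and no marker of these 3 lists was at 0 in all libraries of a group. Aged IgG2a replicate 1 stood apart from the other 3 libraries of its group, with a score of -16.4 on the first principal component of all genes against 71.6 to 84.2, the highest proximal tubule sum (4160 CPM) and the lowest macrophage sum (2429 CPM) of the group. The main edgeR values of the 8 genes against the aged IgG2a group are therefore given with and without it. Aged aPD1ab replicate 2 had the lowest podocyte sum of all libraries (231 CPM) and the highest proximal tubule sum (12753 CPM).

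The 3 forkhead members are single-exon genes whose coding sequences are alike in the DNA-binding domain, and for the closest pair the stretch that could send a read to the wrong member is shown here. The bases of Foxc2 that differ from Foxc1 are in capitals (5′ to 3′, coding strand, GENCODE M21 on GRCm38).
Foxc1, chr13:31807628-31807717: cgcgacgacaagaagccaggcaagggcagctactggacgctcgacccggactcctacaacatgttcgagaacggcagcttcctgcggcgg
Foxc2, chr8:121117014-121117103: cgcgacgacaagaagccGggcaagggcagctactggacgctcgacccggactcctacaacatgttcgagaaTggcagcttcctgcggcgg
Over these 90 bases Foxc2 differed from Foxc1 at 2 bases. The longest identical run between Foxc1 and Foxc2 was 53 bases and lay inside both coding sequences, whereas no other pair of members shared a run of more than 21 bases. No 50-base word of Wt1, Tcf21, Osr2 or a forkhead member occurred in the transcripts of a gene outside the 8. For Lmx1b such words made up 0.390% of all its 50-base words, and for Zeb2 2.26%, most of them in the antisense gene Zeb2os, which shares 653 exonic bases with Zeb2 and held 25 to 125 counts where Zeb2 held 1128 to 3998. Whether counting used the strand is not given in the sources used here, so reads of Zeb2 and Zeb2os cannot be told apart over those bases.

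Levels of different genes were compared per kilobase of annotated exon. This length joins all annotated exons of a gene, 19942 bases for Zeb2 and 6195 for Wt1, and can exceed that of the mRNA made. The order between genes therefore depends on the annotation. In young mice the order was Zeb2 at 4.33 ± 0.658 CPM per kb (mean ± SD, n = 5), Wt1 at 3.48 ± 1.03, Tcf21 at 2.12 ± 0.612, Osr2 at 1.39 ± 0.259, Lmx1b at 1.31 ± 0.346, Foxc1 at 1.23 ± 0.173, Foxc2 at 1.15 ± 0.156 and Foxd1 at 0.240 ± 0.0346. From Zeb2 down to Foxc2 no neighbours in this order differed beyond their SDs, while Foxd1 stood below all others. In aged IgG2a-injected mice Zeb2 remained first at 7.17 ± 2.30 CPM per kb (n = 4), above all other members, and Wt1 was at place 5 with 0.543 ± 0.298, behind Tcf21 (1.31 ± 0.488), Foxc1 (0.823 ± 0.125) and Osr2 (0.607 ± 0.376) and within their SDs. In aged aPD1ab-injected mice Zeb2 was at 3.49 ± 1.05 CPM per kb (n = 4) and Osr2 followed at 3.20 ± 2.70, a spread wide enough to reach the neighbouring levels of Tcf21 (1.85 ± 0.945) and Wt1 (1.53 ± 0.811).

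**Figure D1:**
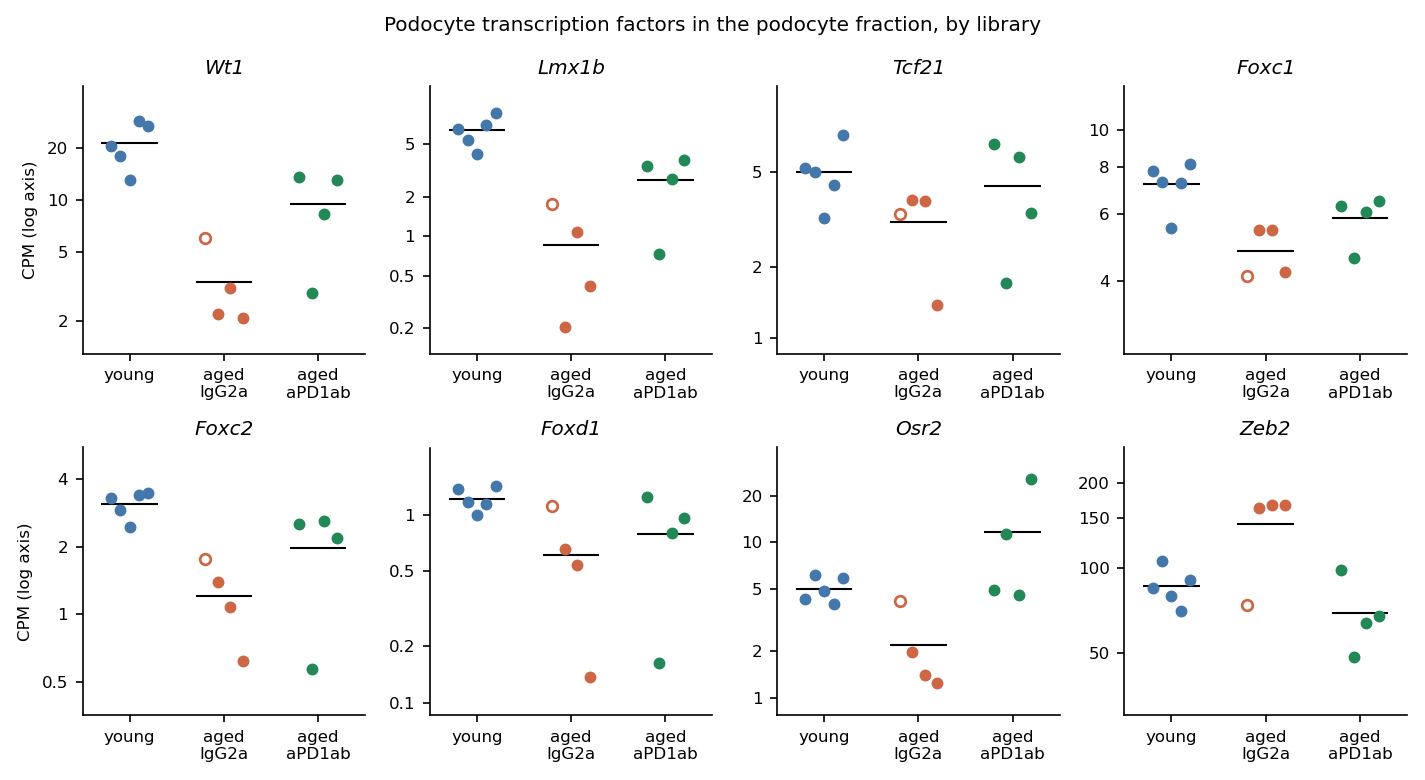
CPM of each transcription factor (log axis) in the podocyte fraction of young (blue), aged IgG2a-injected (orange) and aged aPD1ab-injected (green) mice. Each point is a library, the line is the group mean and the open point is aged IgG2a replicate 1. For Wt1 and Lmx1b all young libraries lie above all aged IgG2a libraries, and for Zeb2 the open point at 74.1 CPM lies apart from the other 3 aged IgG2a libraries at 163 to 167 CPM.

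The first comparison asked how the factors differed between aged IgG2a-injected and young mice. Wt1, Lmx1b, Foxc2 and Osr2 were lower and Zeb2 was higher in the aged mice, and Tcf21, Foxc1 and Foxd1 did not pass the test. Thus 4 of the 8 genes were called lower, where 8.38% of all 15953 genes tested were, and 1 was called higher, where 9.05% were (edgeR quasi-likelihood test, Benjamini-Hochberg adjusted p under 0.05). The median log2 fold change was -0.98 for the 8 genes and 0.038 for all genes. Without aged IgG2a replicate 1, 6 were lower and 1 was higher, of 23.5% and 22.1% of all genes, with Tcf21 as the exception. With a score of the proximal tubule markers as a covariate, 0 of the 8 passed. The share of all genes called in that fit is not given, so the count does not set the 8 apart from other genes. The tubule sum of every aged IgG2a library lay below that of every young one, so the covariate and the group cannot be told apart.

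The second comparison asked what the PD-1 antibody did in aged mice. With all libraries edgeR called 0 of the 8 genes and 0 of 15530 genes in all (0% in each direction), although 4 of the 8 genes and 28% of all genes had an unadjusted p under 0.05. DESeq2 called 2 of the 8 higher and 1 lower, beside 8.95% and 6.33% of all genes, and limma voom with sample quality weights called 3 higher and 1 lower, beside 20.9% and 18.8%. Without aged IgG2a replicate 1, Wt1, Lmx1b and Osr2 were higher and Zeb2 was lower with aPD1ab than with IgG2a by edgeR, so 3 were called higher, of 17.1% of all genes, and 1 lower, of 13.2%. The third comparison set aged aPD1ab-injected against young mice and shares libraries with both comparisons above. Lmx1b alone was called, as lower, where 9.97% of all 15986 genes were lower and 12.4% higher. That call was lost in 8 of the 9 fits that left out a library in turn.

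**Figure D2:**
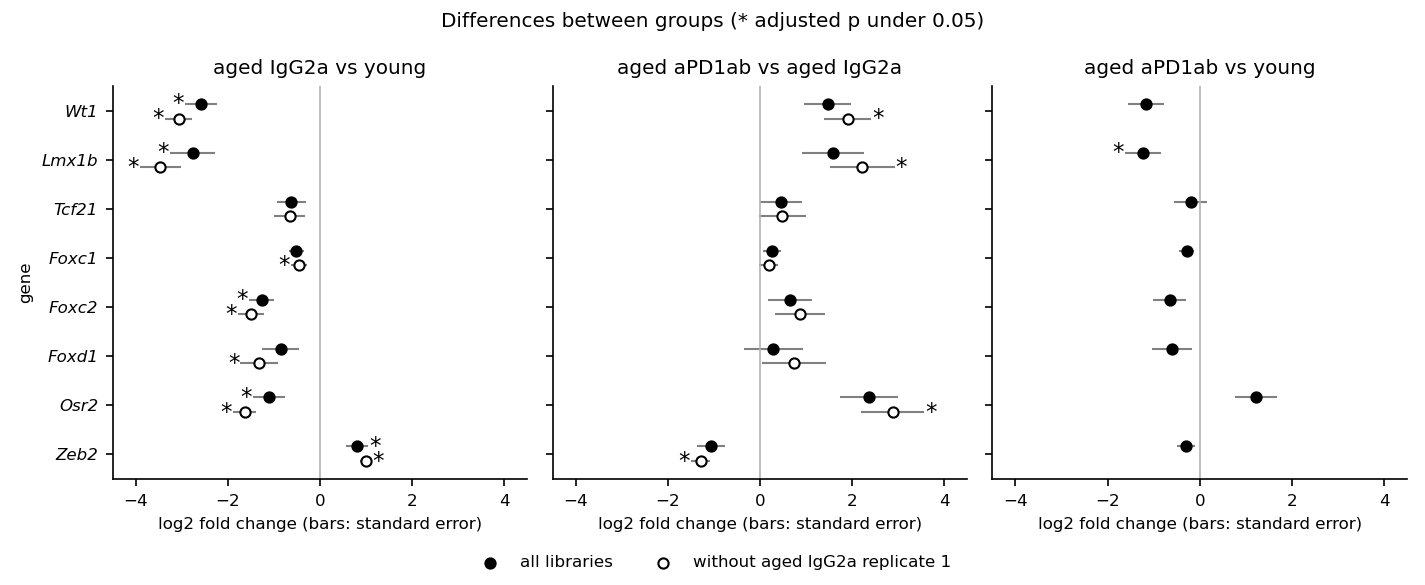
Log2 fold change (bars, standard error) of each transcription factor in the 3 comparisons, with all libraries (filled) and without aged IgG2a replicate 1 (open), with a star at an edgeR adjusted p under 0.05. Lmx1b and Wt1 show the largest negative values with age, at -2.77 and -2.59, and no filled point in the middle panel has a star.

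Wt1 (chromosome 2, 105126529 to 105173616, plus strand, GRCm38, as for all positions here) encodes the zinc finger protein WT1, which is made throughout podocyte life and activates Nphs1. It was at 20.7, 18.1, 13.2, 28.7 and 26.9 CPM in the young libraries, at 6.04, 2.21, 3.12 and 2.07 CPM with IgG2a and at 13.6, 2.89, 8.28 and 13.2 CPM with aPD1ab, in the order of the replicates. All aged IgG2a libraries lay below all young ones, a pattern found for 9.74% of genes, and 3 of the 4 aPD1ab libraries lay above all IgG2a libraries while replicate 2 lay among them. Wt1 fell 6.03-fold with age (21.5 ± 6.38 CPM young vs. 3.36 ± 1.84 CPM aged IgG2a, log2 fold change -2.59, SE 0.35, edgeR adjusted p = 0.00460), and 8.36-fold without IgG2a replicate 1 (edgeR adjusted p = 4.03e-05). Between aPD1ab (9.49 ± 5.02 CPM) and IgG2a the log2 fold change was 1.47 (SE 0.50, edgeR adjusted p = 0.124). Without IgG2a replicate 1, Wt1 was 3.75-fold higher with aPD1ab (log2 1.91, SE 0.51, edgeR adjusted p = 0.0260). Against young mice the aPD1ab value was -1.16 (edgeR adjusted p = 0.0569), and it passed the test without aPD1ab replicate 2 (-0.86, edgeR adjusted p = 0.0394) or replicate 1 (-1.38, edgeR adjusted p = 0.0451).

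Lmx1b (chromosome 2, 33560965 to 33640511, minus strand) encodes a LIM homeodomain protein whose mutation causes nail-patella syndrome with glomerular disease. Young libraries held 6.51, 5.40, 4.25, 7.08 and 8.70 CPM, IgG2a libraries 1.76, 0.204, 1.08 and 0.415 CPM, and aPD1ab libraries 3.44, 0.733, 2.72 and 3.79 CPM. Groups did not overlap between young and IgG2a, nor between young and aPD1ab (a pattern of 10.6% of genes in that direction), and aPD1ab replicate 2 again lay among the IgG2a libraries. The IgG2a values rest on few reads, 60, 5, 20 and 6 counts. Lmx1b fell 6.81-fold with age (log2 -2.77, SE 0.50, edgeR adjusted p = 0.0111) and 11.04-fold without IgG2a replicate 1 (edgeR adjusted p = 1.82e-04). The log2 fold change of aPD1ab vs. IgG2a was 1.58 (SE 0.67, edgeR adjusted p = 0.168), and without IgG2a replicate 1 Lmx1b was 4.66-fold higher (SE 0.70 on the log2 scale, edgeR adjusted p = 0.0451). Compared with young mice it was lower with aPD1ab (log2 -1.23, SE 0.40, edgeR adjusted p = 0.0474).

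Tcf21 (chromosome 10, 22817281 to 22820174, minus strand) encodes a basic helix-loop-helix protein of the developing glomerulus that is also made in stromal cells. Its libraries held 5.18, 4.98, 3.21, 4.40 and 7.17 CPM in young mice, 3.31, 3.80, 3.77 and 1.38 CPM with IgG2a and 6.52, 1.71, 5.79 and 3.34 CPM with aPD1ab, and the 3 groups overlapped. No comparison passed the test, with log2 fold changes of -0.62 (SE 0.31, edgeR adjusted p = 0.175) for IgG2a vs. young and 0.46 (SE 0.45, edgeR adjusted p = 0.520) for aPD1ab vs. IgG2a. Without IgG2a replicate 1 the values were -0.66 and 0.48, and neither passed. Summed CPM of 6 interstitial fibroblast markers was 30.2 to 45.3 in young mice, 15.975 to 61.4 with IgG2a and 23.4 to 34.0 with aPD1ab, and the sum of 8 mesangial, pericyte and smooth muscle markers was 279 to 388, 145 to 204 and 158 to 199 CPM. Their part in the levels of Tcf21 and of Foxd1 below was not tested.

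Foxc1 (chromosome 13, 31806633 to 31812476, plus strand) and Foxc2 (chromosome 8, 121116171 to 121118895, plus strand) encode closely related forkhead proteins that act together in early kidney and podocyte development. Foxc1 was at 7.79, 7.30, 5.52, 7.25 and 8.14 CPM in young libraries, 4.13, 5.44, 5.44 and 4.22 CPM with IgG2a and 6.28, 4.60, 6.07 and 6.49 CPM with aPD1ab. Foxc2 was at 3.32, 2.93, 2.46, 3.42 and 3.47 CPM in young libraries, 1.76, 1.39, 1.08 and 0.622 CPM with IgG2a and 2.52, 0.570, 2.61 and 2.19 CPM with aPD1ab. For both genes every IgG2a library lay below every young one, by a narrow margin for Foxc1 (5.44 against 5.52 CPM). Foxc2 fell 2.41-fold with age (log2 -1.27, SE 0.28, edgeR adjusted p = 0.0198), and the value was -1.50 without IgG2a replicate 1 (edgeR adjusted p = 0.00150). The call was lost without IgG2a replicate 3 (log2 -1.21, edgeR adjusted p = 0.0653). For Foxc1 the log2 fold change was -0.52 (SE 0.17, edgeR adjusted p = 0.0570) and, without IgG2a replicate 1, -0.45 (edgeR adjusted p = 0.0488), just inside the threshold. Neither gene passed between aPD1ab and IgG2a, at 0.27 (SE 0.20) for Foxc1 and 0.66 (SE 0.49) for Foxc2, nor without that library, at 0.19 and 0.87.

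Foxd1 (chromosome 13, 98354242 to 98359305, plus strand), a forkhead gene best known from the stromal progenitors of the kidney and also found in podocytes, was the least abundant member. It was at 1.37, 1.16, 0.992, 1.14 and 1.42 CPM in young libraries, 1.11, 0.654, 0.539 and 0.138 CPM with IgG2a and 1.24, 0.163, 0.794 and 0.956 CPM with aPD1ab. IgG2a replicate 4 held 2 counts, which is within the floor of 3 counts, and the groups overlapped. The log2 fold change with age was -0.86 (SE 0.41, edgeR adjusted p = 0.160), and without IgG2a replicate 1 Foxd1 was lower (-1.32, SE 0.41, edgeR adjusted p = 0.0232). Between aPD1ab and IgG2a the value was 0.29 (SE 0.65), and 0.74 (SE 0.70) without that library, an error too large to show differences of that size at these counts.

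Osr2 (chromosome 15, 35296098 to 35303305, plus strand) encodes an odd-skipped zinc finger protein best known from palate development. Values were 4.31, 6.14, 4.84, 4.03 and 5.90 CPM in young libraries, 4.19, 1.96, 1.40 and 1.24 CPM with IgG2a and 4.96, 11.4, 4.59 and 25.5 CPM with aPD1ab. All aPD1ab libraries lay above all IgG2a libraries, a pattern of 7.25% of genes, and replicates 2 and 4 lay above every young library. Osr2 fell 2.16-fold with age (log2 -1.11, SE 0.34, edgeR adjusted p = 0.0486), a call lost in 8 of the 9 fits without a library and present only without IgG2a replicate 1 (-1.64, edgeR adjusted p = 3.79e-04). For aPD1ab vs. IgG2a the log2 fold change was 2.37 (SE 0.63, edgeR adjusted p = 0.109), and without IgG2a replicate 1 Osr2 was 7.38-fold higher (SE 0.68 on the log2 scale, edgeR adjusted p = 0.0177). It was 1.65 without aPD1ab replicate 4. Against young mice the value was 1.23 (edgeR adjusted p = 0.0768) and 0.48 without that library, and Osr2 was higher without aPD1ab replicate 1 (1.48, edgeR adjusted p = 0.0343) or replicate 3 (1.48, edgeR adjusted p = 0.0380). Unlike the members above, Osr2 was not lowest in aPD1ab replicate 2, the library with the lowest podocyte sum. Within the IgG2a group replicate 1 was highest both for Osr2 and for the proximal tubule sum, while among the other 3 libraries replicate 2 had the lowest sum (883 CPM) and the highest Osr2 (1.96 CPM). Of the 10 proximal tubule markers 9 were lower with age, beside 8.38% of all genes, and 10 without IgG2a replicate 1, beside 23.5%. Between aPD1ab and IgG2a 0 of the 10 were called by edgeR with all libraries, 8 had an unadjusted p under 0.05 and DESeq2 called 7 higher. With IgG2a replicate 1 left out, 9 were higher with aPD1ab by edgeR, beside 17.1% of all genes. With their score as a covariate the value of Osr2 was 0.031 with age and 1.22 for aPD1ab vs. IgG2a, but the tubule sums of the groups did not overlap in either comparison, so covariate and group cannot be told apart in these fits. The part of tubule cells in the level of Osr2 was not tested.

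Zeb2 (chromosome 2, 44983632 to 45117395, minus strand) encodes a zinc finger repressor of epithelial genes, which is made in podocytes and also in macrophages and other leukocytes. It was at 84.9, 106, 79.6, 70.7 and 90.5 CPM in young libraries, 74.1, 163, 167 and 167 CPM with IgG2a and 98.3, 48.2, 64.0 and 67.6 CPM with aPD1ab. Replicates 2 to 4 with IgG2a lay above every other library, and replicate 1 lay within the young range. Zeb2 rose 1.74-fold with age (log2 0.80, SE 0.24, edgeR adjusted p = 0.0470), a call lost in 8 of 9 fits without a library, and 1.996-fold without IgG2a replicate 1 (SE 0.12 on the log2 scale, edgeR adjusted p = 9.83e-05). The log2 fold change of aPD1ab vs. IgG2a was -1.06 (SE 0.31, edgeR adjusted p = 0.109), and without IgG2a replicate 1 Zeb2 was 2.44-fold lower (edgeR adjusted p = 0.00761). With age macrophage markers moved in the same direction: 9 of the 10 were higher, beside 9.05% of all genes, and 10 without IgG2a replicate 1, beside 22.1%. Between aPD1ab and IgG2a 0 of the 10 were called by edgeR with all libraries, 6 had an unadjusted p under 0.05 and DESeq2 called 6 lower. With IgG2a replicate 1 left out, 9 were lower with aPD1ab by edgeR, beside 13.2% of all genes. Between young and aPD1ab-injected mice the directions differed. Zeb2 had means of 86.3 CPM young and 69.5 CPM with aPD1ab, while the median macrophage sum was 2605 CPM young and 3124 CPM with aPD1ab. IgG2a replicates 2 to 4 had sums of 7473, 7109 and 5466 CPM at nearly equal Zeb2. With a score of the proximal tubule markers as a covariate the value of Zeb2 with age was -0.46. The tubule sums of the IgG2a and young libraries did not overlap, so covariate and group cannot be told apart in that fit. The part of macrophages in the level of Zeb2 was not tested.

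**Figure D3:**
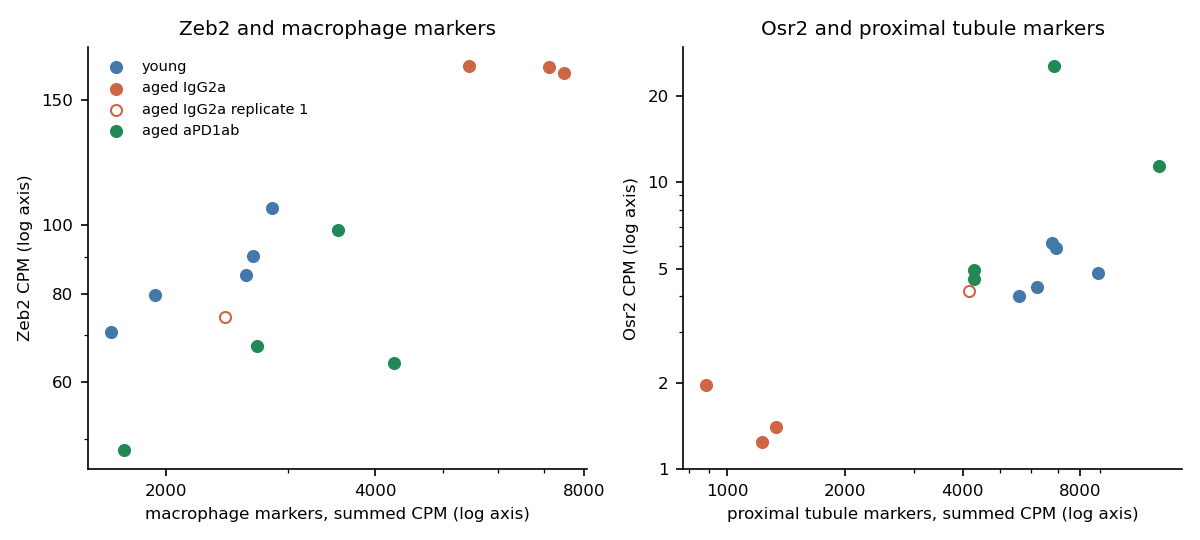
Zeb2 CPM against the summed CPM of 10 macrophage markers (left) and Osr2 CPM against the summed CPM of 10 proximal tubule markers (right), on log axes, with a point for each library. On the left, the 3 aged IgG2a libraries with Zeb2 at 163 to 167 CPM have the highest macrophage sums, 5466 to 7473 CPM, and on the right the 3 libraries with the lowest proximal tubule sums, 883 to 1337 CPM, have the lowest Osr2.

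Counts were then expressed relative to the summed counts of 7 podocyte structural genes, among them Nphs1, Synpo and Ptpro. Wt1 stood at 37.5, 36.4, 32.8, 46.0 and 41.8 counts per 1000 structural counts in young libraries. It stood at 31.7, 16.7, 18.8 and 13.7 with IgG2a and at 42.3, 29.1, 40.3 and 37.7 with aPD1ab. Lmx1b stood at 11.8, 10.9, 10.6, 11.4 and 13.5 in young libraries, 9.22, 1.55, 6.49 and 2.74 with IgG2a and 10.7, 7.36, 13.2 and 10.9 with aPD1ab. On this scale Wt1 was lower with age by a log2 fold change of -0.92 (SE 0.25, edgeR adjusted p = 0.00189) and Lmx1b by -1.14 (SE 0.39, edgeR adjusted p = 0.00906), where 0.263% of all genes were lower and 91.4% higher. Without IgG2a replicate 1 the values were -1.24 and -1.68, and 1.78% of all genes were lower and 90.1% higher. Ptpro, which encodes a receptor tyrosine phosphatase of podocyte foot processes, made up 13.3% of the structural counts in young mice and 44.7% with IgG2a. In the IgG2a libraries Ptpro was at 34.7, 73.2, 85.6 and 81.1 CPM, while Nphs1 was at 19.4, 4.58, 7.11 and 4.15 CPM. The macrophage sums of these libraries were 2429, 7473, 7109 and 5466 CPM. Ptpro was thus lowest in replicate 1, where Nphs1 was highest and the macrophage sum lowest. The part of other cells in the level of Ptpro was not tested. With the 6 other genes as the reference neither call held, at -0.31 for Wt1 (edgeR adjusted p = 0.323) and -0.61 for Lmx1b (edgeR adjusted p = 0.148). The reference without Ptpro was chosen after seeing the data. Both values stayed below 0 under both references, while their size and the calls depended on whether Ptpro was in the reference.

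**Figure D4:**
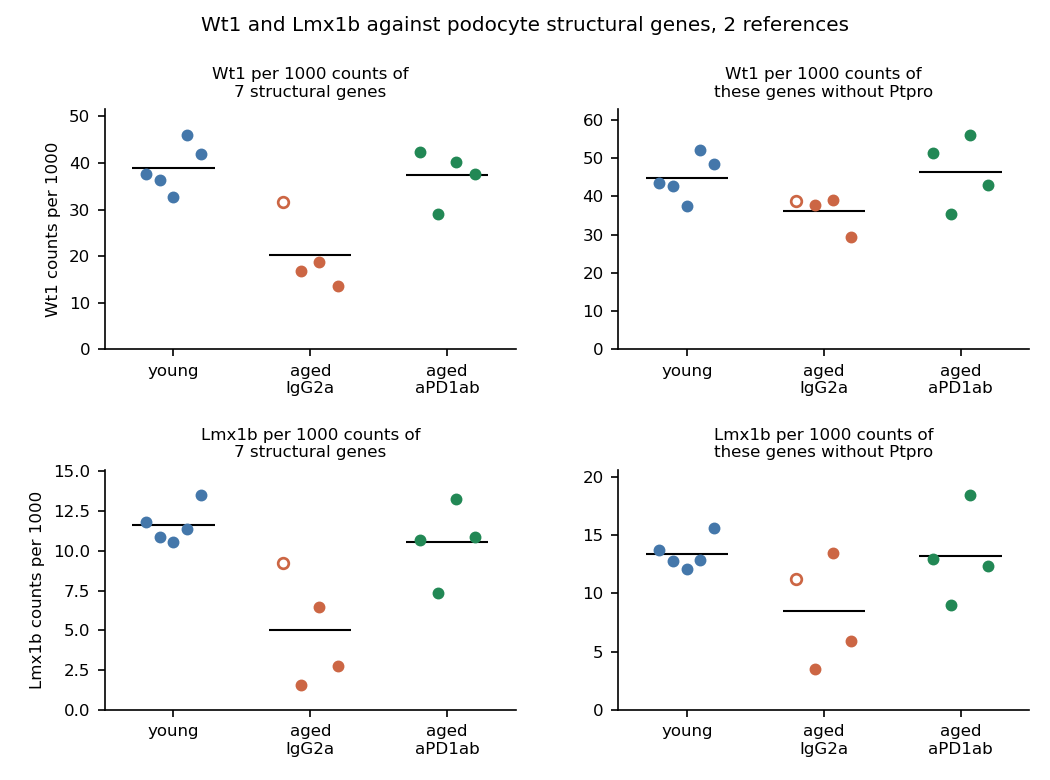
Counts of Wt1 (top) and Lmx1b (bottom) per 1000 counts of 7 podocyte structural genes (left) and of these genes without Ptpro (right). Each point is a library (blue, young, orange, aged IgG2a, green, aged aPD1ab), the line is the group mean and the open point is aged IgG2a replicate 1. For Wt1 the IgG2a libraries are at 13.7 to 31.7 on the left, against 32.8 to 46.0 in young mice. On the right they overlap the young ones, at 29.4 to 38.9 against 37.5 to 52.1.

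Under both references Tcf21, Foxc1 and Zeb2 were higher with age relative to the structural genes (log2 1.10, 1.21 and 2.51 with 7 genes), as most genes were. Foxc2, Foxd1 and Osr2 joined them without Ptpro, where 96% of all genes were higher and 0.069% lower. Osr2 stood at 7.81, 12.4, 12.1, 6.46 and 9.15 counts per 1000 structural counts in young libraries, 21.983, 14.9, 8.44 and 8.21 with IgG2a and 15.4, 114, 22.3 and 73.0 with aPD1ab, highest in aPD1ab replicates 2 and 4. For aPD1ab vs. IgG2a only Osr2 passed with the 7 genes (log2 2.05, SE 0.58, edgeR adjusted p = 0.0216, where 2.17% of all genes were higher and 1.07% lower), and it did not pass without IgG2a replicate 2, 3 or 4. Without IgG2a replicate 1 Osr2 was higher (2.41) and Zeb2 lower (-1.79), beside 3.3% and 3.53% of all genes. Without Ptpro in the reference Osr2 did not pass (edgeR adjusted p = 0.101) and Zeb2 was lower (-2.26, edgeR adjusted p = 0.0194), beside 0.56% of genes higher and 9.7% lower. For aPD1ab vs. young, Tcf21, Foxc1, Osr2 and Zeb2 were higher under both references, by 1.04, 1.08, 2.55 and 0.98 with the 7 genes, where 80.2% of all genes were higher and 0.125% lower. The shares were 83.8% and 0.1% without Ptpro. Wt1 and Lmx1b in aPD1ab-injected mice were at -0.059 and -0.14 against young mice on the 7-gene scale, with standard errors of 0.45 and 0.48. Of the 7 structural genes themselves 6 were lower with age in the comparison of IgG2a with young mice, with or without IgG2a replicate 1, and Ptpro was not called (72.4 ± 13.6 CPM young vs. 68.7 ± 23.2 CPM aged IgG2a, log2 -0.0041, edgeR adjusted p = 0.992). In log2 units Nphs1 fell by 2.80 (edgeR adjusted p = 0.00833) and Synpo fell by 1.84 (edgeR adjusted p = 0.00119), and they fell by 3.55 and 1.95 without that library. Podxl, a podocyte surface sialomucin gene outside the 7, fell by 1.56 (edgeR adjusted p = 0.00269), and by 1.62 without it.

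Over all 13 libraries the genes closest in pattern to each member were found by the root mean square (RMS) difference of centred log2 CPM among 16329 genes, as a description of libraries that share the same groups. Nearest to Wt1 were Snx31 (RMS 0.176), Ddn (0.209) and Myom2 (0.233), with Nphs1 at place 4. Lmx1b was nearest to Nphs1 (0.333), Ddn (0.349) and Rab3b (0.371), with Wt1 at place 4. Foxc2 and Foxd1 were near each other (0.290), after Angptl2 for Foxc2, and Snai1 was among the 3 nearest genes of both. The members nearest to Tcf21 were Foxc2 (0.415), Foxd1 and Foxc1, behind 6820408C15Rik (0.307), Gm17971 and Dll4, and the genes nearest to Foxc1, the member with the smallest spread, were Pak1 (0.193), Ccdc9b and Sox13. Osr2 had no other member near it and was closest to Steap1 (0.251), Pklr and Rnf183. Zeb2 was closest to Zc3h12d (0.141), Fyb and Cd300ld3, and Wt1 stood at place 15871 of 16329 from it.

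A further 20 transcription regulators with known roles in podocytes were read in the same tests. With age 4 were higher and 1 lower, beside 9.05% and 8.38% of all genes. Among them Tcf7l2, which acts in Wnt signalling, rose by 0.72 (SE 0.16, edgeR adjusted p = 0.0224), Ldb1, a partner of LIM homeodomain proteins such as LMX1B, by 0.50 and Stat3, a mediator of cytokine signals, by 0.35 on the log2 scale, and Tead1, a partner of YAP in the Hippo pathway, was lower at -0.88 (SE 0.25, edgeR adjusted p = 0.0406). Without IgG2a replicate 1, 5 of the 20 were higher and 9 lower, beside 22.1% and 23.5% of all genes, and the values of these genes were 0.78, 0.59, 0.30 and -1.20 in the same order. With each library left out in turn, the calls of Ldb1 and Stat3 were each lost in 8 of 9 fits and that of Tcf7l2 in 4. Between aPD1ab and IgG2a 0 of the 20 passed by edgeR with all libraries, 10 had an unadjusted p under 0.05, as 28% of all genes had, and DESeq2 called 3 lower, beside 6.33%. Without IgG2a replicate 1, 9 were higher and 4 lower by edgeR, beside 17.1% and 13.2% of all genes. Against young mice 4 were lower with aPD1ab, beside 9.97% of all genes: the glucocorticoid receptor gene Nr3c1 (log2 -0.47, edgeR adjusted p = 0.0137), the mineralocorticoid receptor gene Nr3c2 (-0.57), Hif1a (-0.47), which acts in the response to low oxygen, and Creb1 (-0.39), a target of cAMP signalling. In the fits of that comparison with a library left out, the calls of Creb1, Nr3c2 and Hif1a were lost in 7, 6 and 1 of 9. The call of Nr3c1 was lost in 0. The median log2 fold change of the 20 was -0.062, -0.14 and -0.10 in the 3 comparisons, beside 0.038, -0.011 and 0.017 for all genes.

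Promoter sequences were found in the RefSeq table (GRCm38.p6) for Lmx1b, Tcf21, Foxc1, Foxd1 and Zeb2. Shown are the 250 bases before the RefSeq start of Lmx1b, the member with the largest fall, 5′ to 3′ on the minus strand. Those before the most upstream RefSeq start of Zeb2, the member that rose, follow in the same way. Both RefSeq starts lie upstream of the GENCODE M21 starts, 33640511 for Lmx1b and 45117395 for Zeb2. Capitals would mark a match to any of 6 short motifs, and none is present.
Lmx1b, chr2:33641099-33641348: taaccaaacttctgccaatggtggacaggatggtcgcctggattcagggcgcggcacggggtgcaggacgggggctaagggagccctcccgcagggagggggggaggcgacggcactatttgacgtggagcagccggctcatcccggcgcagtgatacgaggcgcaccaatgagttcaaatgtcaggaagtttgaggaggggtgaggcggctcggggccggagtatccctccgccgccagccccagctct
Zeb2, chr2:45117443-45117692: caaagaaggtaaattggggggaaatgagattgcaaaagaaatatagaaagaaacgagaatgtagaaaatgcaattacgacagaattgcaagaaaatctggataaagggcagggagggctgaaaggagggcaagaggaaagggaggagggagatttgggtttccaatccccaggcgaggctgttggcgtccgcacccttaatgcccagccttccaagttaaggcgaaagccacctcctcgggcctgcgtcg
The motifs were searched on both strands: TAATTA for LMX1B, GTAAACA for forkhead proteins, CAGCTG for TCF21, CACCTG for ZEB2, GTGGGAG for WT1 and the GC box GGGCGG. In windows of 250 upstream bases TAATTA occurred in 4.84% of all 32851 promoters, GTAAACA in 3.17%, CACCTG in 17.2%, GTGGGAG in 8.25%, GGGCGG in 32.7% and CAGCTG in 4271 of them. The first 5 were in none of the members' windows, and the GC box was in those of Foxc1 and Foxd1 and in windows of 3 of the 4 Zeb2 starts. The base composition differed between the 2 windows shown, with 65.2% G and C for Lmx1b and 49.6% for Zeb2 beside a median of 52.4% over all promoters.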

How the data were processed

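The authors deposited raw counts of reads per Ensembl gene. HISAT2, featureCounts and the builds mm10 and GRCm38 are named per the submitters' processing notes. Versions, annotation and strand setting are not given in the sources used here. The labels list 15 samples. The numbers beside the points of the study's principal component plot tie 13 columns to groups, and 2 columns tied to no group were not used. Replicates were numbered in column order and are separate mice, so p-values measure the spread between mice. Symbols and positions came from GENCODE M21 (45143 of 46078 genes matched).

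Pairs of groups were fitted on the counts with edgeR 4.0.16 (R 4.3.3; TMM, filterByExpr, robust quasi-likelihood test). Adjusted p-values are those of Benjamini and Hochberg over every gene in the fit, with a threshold of 0.05. All 8 genes passed the filter in each comparison. For the scale relative to structural genes, the log of their summed counts replaced the library size. The fits were run on simulated counts in which 100 genes differed 2-fold. Of these, 73 were recovered for IgG2a vs. young, 32 for aPD1ab vs. IgG2a and 73 for aPD1ab vs. young. The simulated spread was taken from a group other than aged IgG2a, so the spread within that group was not simulated. Genes named besides the 8 were the 4 regulators with the smallest p past the threshold in each comparison, and Tead1, chosen after its value was seen. The others were Nphs1, Synpo and Podxl, the 3 nearest genes in pattern and genes overlapping a member. Members and lists were chosen with earlier results of these data known. Alternatives were DESeq2 1.42.0, limma 3.58.1, other scalings, filters, covariates and references, and each library left out. The reference without Ptpro was chosen after seeing the data. Some planned results, 1 other reference, 1 structural gene and 1 regulator among them, are not reported here. Ranges of counts and floors cover counting error only.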

Additional observations from a re-analysis of the deposited data

Results flagged for a closer look

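Zeb2 in aged IgG2a replicate 1 was at 74.1 CPM, while the other 3 libraries of the group were at 163 to 167 CPM, a gap of 0.958 of the group's range by Dixon's test. Of 48 groups of values tested, 8 genes in 3 groups on 2 scales, it was the only value marked in this way, and chance marks about 1 in 20 groups. The same library had the lowest macrophage sum of its group, 2429 CPM against 5466 to 7473 CPM. The part of macrophages in its Zeb2 level was not tested.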

How the results depend on the processing

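For IgG2a vs. young, 5 of the 8 genes were called, and 2 to 7 when each library was left out: 7 without IgG2a replicate 1, 2 without IgG2a replicate 3 and 3 in the other fits. The count was 3 with no filter and 0 with the proximal tubule score as a covariate, under which Foxd1 (0.0037), Osr2 (0.031) and Zeb2 (-0.46) turned sign. For aPD1ab vs. IgG2a, 0 were called, 3 by DESeq2, 4 by limma voom, 3 in 1 edgeR fit of all 3 groups and 0 to 4 with a library left out, 4 only without IgG2a replicate 1. For aPD1ab vs. young, 1 was called, 3 by DESeq2, 0 with no filter, 0 in the 3-group fit, 4 with the covariate and 0 to 3 with a library left out (3 without aPD1ab replicate 1), and Tcf21 ranged from -0.47 to 0.068, above 0 only without aPD1ab replicate 2. Shares of all genes called were not set beside most of these counts, so they show only how the calls moved between fits.

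Relative to the structural genes, leaving out a library gave 5 to 6, 0 to 3 and 1 to 4 called genes in the 3 comparisons in this order. In the second, the 0 came without IgG2a replicate 2, 3 or 4 and the 3 without aPD1ab replicate 2. Without Ptpro, Foxc2 turned to -0.48 in the second and Wt1 to 0.048 in the third. With a library left out, values around 0 turned for Tcf21 (-0.32 to 0.19), Foxc1 (-0.46 to 0.047) and Foxc2 (-0.21 to 0.28) in the second and for Wt1 (-0.12 to 0.041) in the third. Of the 20 regulators, the 3-group fit called 3, 4 and 2, DESeq2 called 3 in the second, and left-out libraries gave 0 to 14, 0 to 13 and 2 to 4 (14 and 13 without IgG2a replicate 1, 0 in the first without young replicate 3 or IgG2a replicate 2). For most of these fits the share of all genes called is not given, so the counts show only how the calls moved. The cause was not tested.

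No paired analysis was possible because the labels and column names give no number shared between groups. Depth limits Lmx1b and Foxd1 most, with as few as 5 and 2 counts in a library.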
